A study of Homo sapiens with 18 samples.

Results

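Transcript levels of 10 growth factor response genes were examined in 3 head and neck squamous cell carcinoma (HNSCC) cell lines with and without hepatocyte growth factor (HGF). The genes were EGR1, EGR2, EGR3, IER2, IER5, KLF6, PHLDA1, PHLDA2, MAFF and NR4A1, chosen by name from the 19901 genes of the count table, with earlier results of these data known. Each of the 10 matched 1 row. Detroit 562 cells came from a metastasis of a pharynx tumor, FaDu cells from a primary tumor of the hypopharynx, and SCC-9 cells from a primary tumor of the tongue. Each line was left untreated (control) or was given 50 ng/mL HGF, with 3 libraries per group and 18 libraries in all. The sample labels and the sequencing methods of the study give 16 h of treatment, which is used here, while the series record gives 48 h. No earlier time was sampled. The medium of SCC-9 (DMEM F12 with hydrocortisone) was not that of the other two lines (MEM-α), so that line and medium cannot be told apart there, and all cells were detached with trypsin before lysis. Each line is 1 culture model of 1 tumor, and although the methods of the study mention repeats of the experiment, the labels do not tie libraries to them, so p-values measure the spread between these libraries, which may be technical.

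Immediate early genes are transcribed within minutes of growth factor, serum or stress signals without the need for new protein, mainly through ERK-activated ETS factors and serum response factor, and most of their transcripts are short-lived. HGF binds the receptor tyrosine kinase MET, which signals through the same ERK cascade. EGR1, EGR2 and EGR3 are zinc finger transcription factors, KLF6 is a Krüppel-like zinc finger factor, NR4A1 is an orphan nuclear receptor, and MAFF is a small MAF protein that pairs with NRF2 and related factors. IER2 and IER5 are nuclear immediate early proteins, and PHLDA1 and PHLDA2 are small proteins with a pleckstrin homology-like domain, PHLDA2 being encoded by an imprinted gene.

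Total counts per library lay between 35304770 and 44003970, and all 10 genes passed the filter on low counts that 15475 genes passed. All 10 squamous markers were detected in every library, 8 of them at no less than 78.4 CPM (counts relative to the scaled total of the library), while the lowest level was 0.852 CPM for KRT14 and 2.04 CPM for DSG3. In Detroit 562 their sum was 4310 to 5620 CPM in controls and 3160 to 4590 CPM with HGF, and KRT5 (log2 value -0.90, adjusted p = 0.0451) and CDH1 (-0.49, adjusted p = 0.00364) fell, as did DSG3 when the replicate number was fitted as a block (adjusted p of 0.154 without it and 7.28e-05 with it). Of 8 fibroblast markers 3 passed the filter, and COL1A1 (140 to 3646 counts over all libraries; log2 value -0.77, adjusted p = 0.00474) and COL1A2 (0 to 1396 counts; -1.04, adjusted p = 0.0491) fell in Detroit 562, where the list summed to 29.8 to 54.4 CPM in controls and 15 to 27.6 CPM with HGF, while COL3A1, LUM, PDGFRB and THY1 never exceeded 10 counts. Of 5 leukocyte markers CD14 alone passed the filter (1 to 413 counts) and was not called, and PTPRC never exceeded 3 counts. With the block KRT5 (-0.58, adjusted p = 0.00147, against 0.65 without it) and COL1A1 (-0.59, adjusted p = 0.00298, against 0.513) fell in FaDu too. The part of these marker changes in the results was not tested. In untreated cells MET stood at 793 ± 37.7 CPM (SD, n = 3) for Detroit 562, 289 ± 17.7 CPM for SCC-9 and 148 ± 11.5 CPM for FaDu, and the HGF transcript itself had at most 3 counts in any library. Heat shock and handling stress genes summed to 4750 to 5390 CPM in Detroit 562 controls and 6310 to 6680 CPM in the HGF libraries of that line, so that they moved with HGF there, and their part in the results below was not tested. Within each line, libraries that bore the same replicate number deviated together, with correlations across genes of 0.161 to 0.563. The tests were therefore also fitted with the replicate number as a block, and the blocked value of a member is given wherever it changed a call. Genes counted as called when the adjusted p was under 0.1 and the log2 fold change reached 0.4 in either direction. For differences in response between lines and for the replicate number, an adjusted p under 0.1 was enough, with no fold limit.

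The stretch before the annotated start could be read for 8 of the 10 genes (RefSeq, GRCh38.p14), and 3 of them are shown because they hold sites of the kinds that ERK-regulated and cyclic AMP-regulated factors bind. Capitals mark CArG boxes, which serum response factor binds, in EGR1 (chr5:138465329-138465478, plus strand), the letters CCGGAA of an ETS site, here on the opposite strand, in PHLDA1 (chr12:76031777-76031926, minus strand), and the cyclic AMP response element TGACGTCA in MAFF (chr22:38201929-38201958, plus strand).
EGR1: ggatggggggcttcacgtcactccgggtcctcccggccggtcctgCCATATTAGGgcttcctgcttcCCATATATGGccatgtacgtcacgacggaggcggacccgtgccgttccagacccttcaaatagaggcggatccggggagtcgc
PHLDA1: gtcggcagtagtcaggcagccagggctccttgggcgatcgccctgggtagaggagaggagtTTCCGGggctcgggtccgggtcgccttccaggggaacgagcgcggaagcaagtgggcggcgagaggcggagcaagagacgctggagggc
MAFF: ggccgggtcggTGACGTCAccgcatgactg
EGR1 held 2 CArG boxes, 105 and 83 bases before its start, and was the only 1 of the 8 genes with one in the 250 bases searched on both strands, against 1.14% of 27305 promoters. The element in MAFF began 54 bases before the start, in a window that other MAFF transcripts include as exon, and 1.77% of promoters held one. ETS sites were found in 4 of the 8 genes (PHLDA1, IER2, IER5 and NR4A1) and in 14.8% of promoters. The SP1 box GGGCGG was found in 5 of the 8 and in 42.3%, and the EGR site GCGNGGGCG, which overlapped an SP1 box in KLF6, in EGR1 and KLF6 and in 8.25%. No match was found for the AP-1 site TGANTCA or the TATA box TATAAA in these 8 windows, and 6.6% and 11.1% of promoters held one. These matches describe the letters only.

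In untreated cells, KLF6, PHLDA1, NR4A1 and EGR3 were called between all pairs of lines, EGR2, IER5 and MAFF between SCC-9 and each of the others, and EGR1, IER2 and PHLDA2 between none. Per kilobase of exon, EGR1 had the highest mean level in Detroit 562 (75.2 ± 59.3 CPM per kb, SD, n = 3) and FaDu (52 ± 26), whereas in SCC-9 KLF6 (51.0 ± 2.04) lay above EGR1 (46.2 ± 16.1) by less than the spread of EGR1. IER2 came next in Detroit 562 (29.9 ± 14.4 CPM per kb) and FaDu (34.1 ± 15), within its spread of PHLDA2 (28.7 ± 4.7 and 25.1 ± 1.63) in both lines. EGR2 and EGR3 had the lowest levels in every line, at no more than 1.06 CPM per kb. These levels divide counts that include intronic reads by exon length alone.

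**Figure D1:**
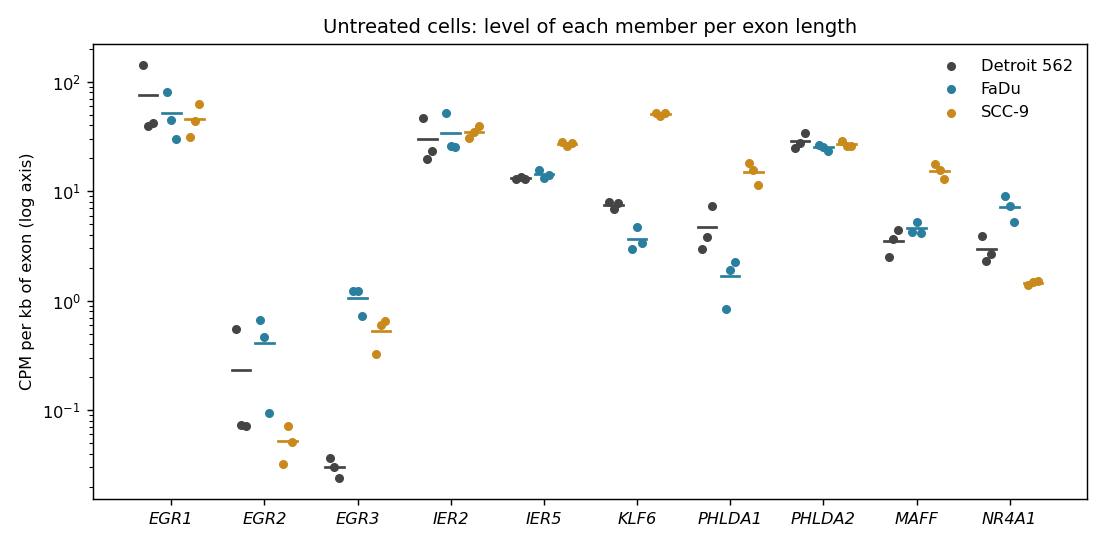
Level of each gene in the 3 untreated libraries of each line, in CPM per kilobase of exon on a log axis, with horizontal bars at the means. The counts include intronic reads. EGR1, IER2 and PHLDA2 overlap between the lines, KLF6, PHLDA1 and MAFF are highest in SCC-9, and EGR3 is near the floor in Detroit 562.

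KLF6 stood at 223.5 to 240.3 CPM in untreated SCC-9, at 31.34 to 36.82 CPM in Detroit 562 and at 13.51 to 21.82 CPM in FaDu, with no overlap between the lines. PHLDA1 ran in the same order, from 67.36 to 108.3 CPM in SCC-9 over 17.58 to 43.76 CPM in Detroit 562 to 4.962 to 13.36 CPM in FaDu. MAFF was likewise highest in SCC-9 (30.74 to 41.96 CPM), while its ranges in Detroit 562 (5.963 to 10.53 CPM) and FaDu (9.906 to 12.53 CPM) overlapped. SCC-9 was thus the line with the highest level of these 3 genes and also of IER5, which stood at 108.9 to 117.7 CPM there against 54.75 to 66.10 CPM over the other lines. NR4A1 had another order, highest in FaDu (12.93 to 22.34 CPM), then Detroit 562 (5.677 to 9.758 CPM), then SCC-9 (3.492 to 3.747 CPM). EGR3 was all but missing from Detroit 562, with 4 to 7 counts per library in the 6 libraries of that line, while FaDu controls had 140 to 233 counts and SCC-9 controls 61 to 116.

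By edgeR, 4 of the 10 genes were called between untreated Detroit 562 and FaDu, where 61% of all genes tested were called, 7 of 10 between Detroit 562 and SCC-9 (65.4%), and 7 of 10 between FaDu and SCC-9 (64.2%), so that these shares do not stand above the differences among genes at large. The widest differences were the log2 fold changes of EGR3 in Detroit 562 against FaDu (-5.09 ± 0.50 SE, adjusted p = 8.85e-08) and against SCC-9 (-4.08 ± 0.52 SE, adjusted p = 1.66e-06), of KLF6 in FaDu against SCC-9 (-3.79 ± 0.26 SE, adjusted p = 7.47e-10) and of PHLDA1 in FaDu against SCC-9 (-3.18 ± 0.42 SE, adjusted p = 3e-06). EGR2 was called 2.96 higher on the log2 scale in FaDu than in SCC-9 (adjusted p = 0.00679), in all 18 fits that left out 1 library. It was also called 2.19 higher in Detroit 562 than in SCC-9 (adjusted p = 0.0443), but this call was lost with either of 2 libraries: without Detroit 562 control replicate 1, which had 70 EGR2 counts against 8 in each of the others, the log2 value was 0.48 (adjusted p = 0.685), and without SCC-9 control replicate 1 it was 1.94 (adjusted p = 0.116). Leaving out the same Detroit 562 library brought EGR2 (log2 value -2.47, adjusted p = 0.0135) and IER2 (-0.65, adjusted p = 0.0888) past the threshold against FaDu, and IER2 against SCC-9 (-0.69, adjusted p = 0.0695). Without Detroit 562 control replicate 3, MAFF was called against FaDu (-0.56, adjusted p = 0.0542).

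After HGF, the transcripts of PHLDA1, PHLDA2 and MAFF rose in Detroit 562, and PHLDA1 changed most. PHLDA1, first described in the death of T cells, stood at 17.58, 22.73 and 43.76 CPM in the 3 Detroit 562 controls and at 69.33, 53.65 and 124 CPM in the HGF libraries. All HGF values lay above all control values, and the fitted rise was 2.94-fold (log2 value 1.56 ± 0.39 SE, adjusted p = 0.00984 by edgeR). PHLDA2, a growth-restraining gene best known from placenta, went from 22.65, 25.31 and 31.1 CPM to 54.78, 44.68 and 46.73 CPM, again without overlap, a rise of 1.85-fold (log2 value 0.89 ± 0.12 SE, adjusted p = 3.35e-04). MAFF went from 5.963, 8.746 and 10.53 CPM to 12.52, 11.72 and 22.24 CPM, also without overlap, a rise of 1.84-fold (log2 value 0.88 ± 0.23 SE, adjusted p = 0.0114). These 3 rises kept their calls when each of the 18 libraries was left out in turn and when both libraries of any 1 replicate number were left out. They were 3 of the 10 genes, read against 6.16% of all genes called up, and none of the 10 was called down without the block, against 11.7% of all genes. With the replicate block 3 were called up (7.13% of all genes) and 2 down (14.4%), the latter being EGR1 and NR4A1.

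**Figure D2:**
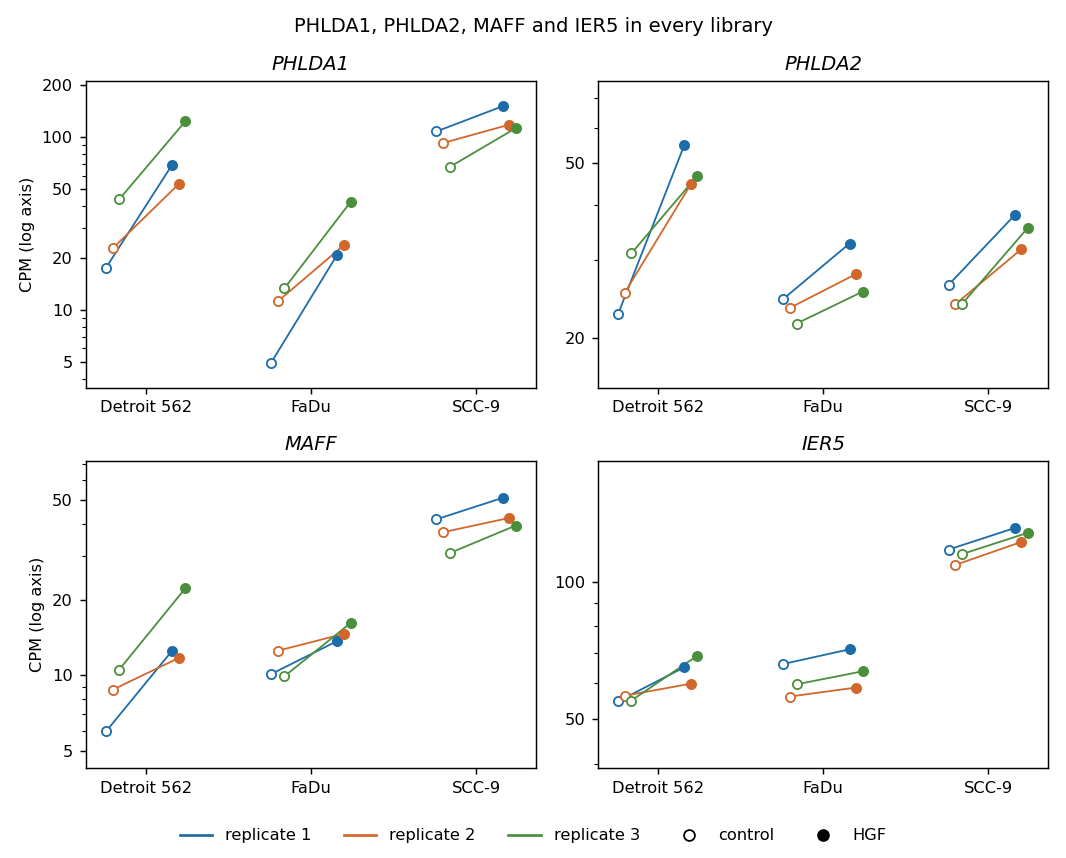
PHLDA1, PHLDA2, MAFF and IER5 in each of the 18 libraries (CPM, log axis), controls as open and HGF as filled circles, with a line joining the libraries of 1 replicate number. Every line of the 4 panels points up, most steeply for PHLDA1 in Detroit 562 and FaDu.

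In FaDu, PHLDA1 was at 4.962, 11.23 and 13.36 CPM in controls and at 20.96, 23.79 and 42.26 CPM with HGF. The groups did not overlap and the fitted rise of 2.94-fold (log2 value 1.56 ± 0.41 SE) equalled that in Detroit 562, yet it missed the threshold without the block (adjusted p = 0.389) and passed it with the block (log2 value 1.58, adjusted p = 4.53e-05) and by DESeq2 without one (adjusted p = 0.0885). No member was called in FaDu by edgeR without the block, in a comparison with 0.0258% of all genes called, and with the block 2 were called up (2% of genes) and 0 down (3.6%). The second was MAFF, which stood at 10.11, 12.53 and 9.906 CPM in controls and 13.7, 14.63 and 16.16 CPM with HGF (log2 value 0.45 ± 0.22 SE, adjusted p = 0.623, and 0.0164 with the block). That call did not hold without the FaDu pair of replicate 1 (blocked adjusted p = 0.103) or of replicate 3 (0.116). PHLDA2 was higher with HGF in all 3 FaDu pairs, from 21.53 to 24.5 CPM in controls to 25.45 to 32.74 CPM, but its log2 value of 0.31 was under the fold limit (adjusted p = 0.572, and 0.0521 with the block).

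In SCC-9, where PHLDA1 was already high, it stood at 108.3, 92.82 and 67.36 CPM in controls and at 151.5, 118.5 and 113.2 CPM with HGF, without overlap (log2 value 0.51 ± 0.38 SE, adjusted p = 1, and 0.0338 with the block). PHLDA2 went from 26.38, 23.81 and 23.83 CPM to 38, 31.77 and 35.58 CPM, again without overlap (log2 value 0.51 ± 0.12 SE, adjusted p = 0.568). It was called with the block (adjusted p = 0.00834) and by DESeq2 (adjusted p = 0.0579). Both blocked calls could be lost by leaving out 1 pair, although the log2 values stayed positive. PHLDA1 lost its call without the SCC-9 pair of replicate 1 (log2 value 0.55, adjusted p = 0.17) or 3 (0.42, adjusted p = 0.419). PHLDA2 lost its call without that of replicate 3 (0.47, adjusted p = 0.147). MAFF was higher with HGF in all 3 pairs, at 1.14 to 1.29 times its control, with overlapping groups (log2 value 0.28 ± 0.21 SE, adjusted p = 1, and 0.148 with the block). Without the block edgeR called 0% of all genes in SCC-9, with 641 genes at an unadjusted p below 0.05, and with the block it called 2 members up (0.562% of genes) and 1 down (1.41%), the latter being EGR3.

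IER5, which is linked to heat shock factor 1, moved by little but in 1 direction. It lay at 54.75, 56.31 and 54.96 CPM in Detroit 562 controls and at 65, 59.84 and 68.95 CPM with HGF, without overlap, and the fitted log2 value of 0.22 ± 0.08 SE passed on p (adjusted p = 0.0452) but not on size. IER5, PHLDA1, PHLDA2 and MAFF were the genes of the 10 that were higher with HGF in 3 of 3 pairs in every line. EGR1, IER2 and KLF6 were also higher in 3 of 3 FaDu pairs, and NR4A1 in 3 of 3 SCC-9 pairs. For each line taken alone, 30.6% of all genes tested were higher in 3 of 3 Detroit 562 pairs, 20% in 3 of 3 FaDu pairs and 23.9% in 3 of 3 SCC-9 pairs. The share of all genes higher in every pair of all 3 lines was not computed. HGF libraries lay wholly above controls for 4 members in Detroit 562 (18.1% of all genes), 3 in FaDu (4.05%) and 3 in SCC-9 (8.3%), and wholly below for none, against 20.1%, 5.36% and 9.12%.

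EGR1, a widely used readout of ERK signaling, was not higher with HGF at 16 h in Detroit 562. It differed far more between replicate numbers than between treatments. An earlier rise of it or of the other genes cannot be seen at this time. Its controls had 450.4, 123.6 and 133.3 CPM and its HGF libraries 383.7, 69.41 and 58.36 CPM in the order of the replicates. Both libraries of replicate 1 were thus high whatever the treatment, and within each pair the HGF library was the lower, at 0.852, 0.562 and 0.438 times its control. Without the block the log2 value was -0.47 ± 0.64 SE (adjusted p = 0.632), and with it EGR1 fell by 0.73 on the log2 scale (adjusted p = 1.47e-04). The unblocked value depended on 1 library, being -1.88 (adjusted p = 0.032) without Detroit 562 HGF replicate 1 and 0.41 without control replicate 1, while the blocked value lay between -1.01 and -0.51, called each time, when either Detroit 562 pair was left out. In FaDu EGR1 was higher with HGF in each pair, at 1.15, 1.33 and 1.26 times its control (140.8 against 187.2 CPM in replicate 2), which gave a blocked log2 value of 0.31, under the fold limit (adjusted p = 0.0928). In SCC-9 it was lower in each pair, at 0.737, 0.813 and 0.78 times its control, and not called either way (log2 value -0.36 ± 0.65 SE, adjusted p = 1, and 0.115 with the block).

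**Figure D3:**
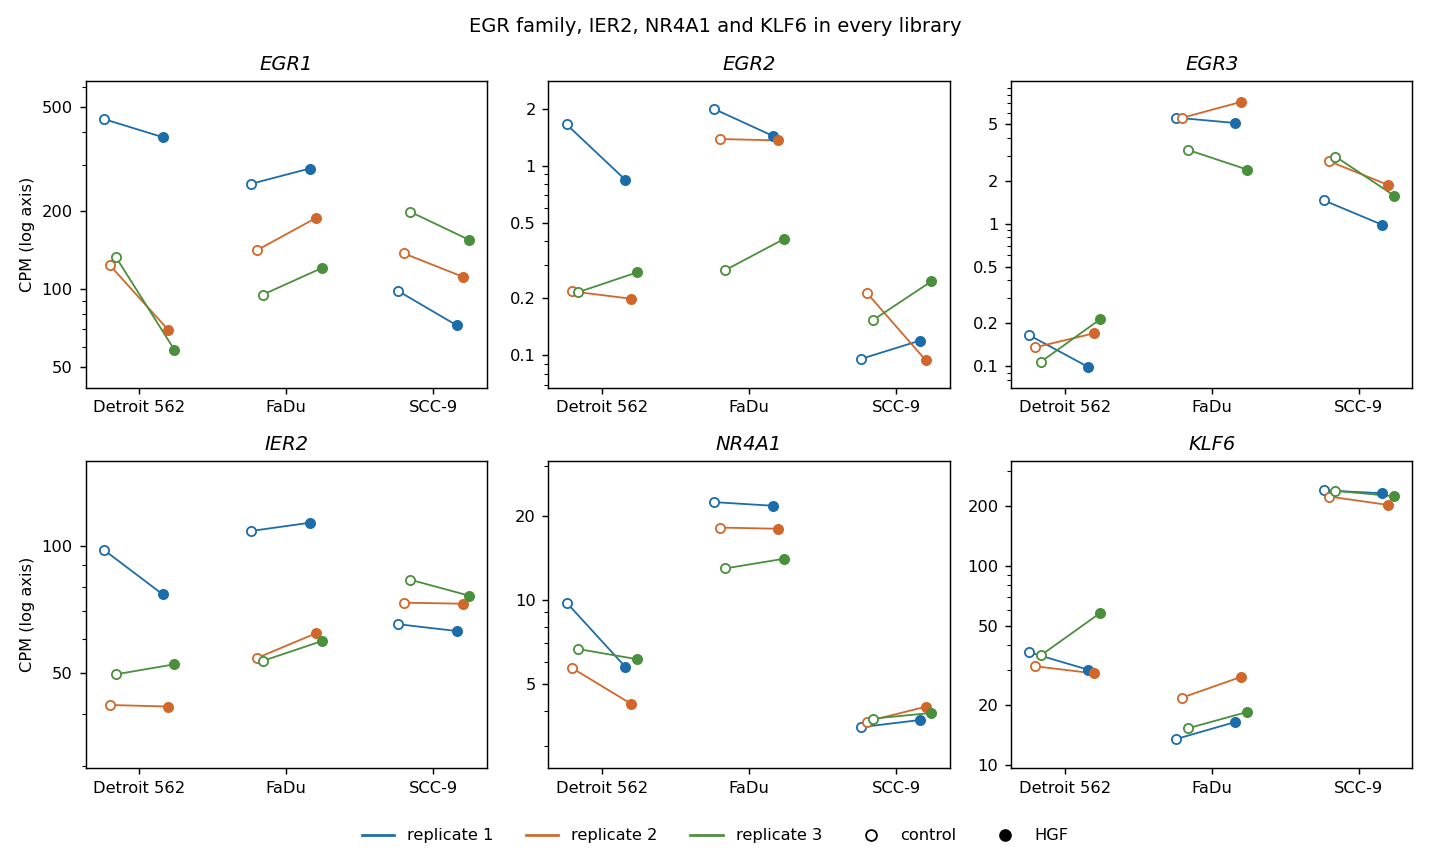
EGR1, EGR2, EGR3, IER2, NR4A1 and KLF6 in each of the 18 libraries (CPM, log axis), controls as open and HGF as filled circles, with a line joining the libraries of 1 replicate number. In Detroit 562 the replicate 1 libraries of EGR1, EGR2 and IER2 lie above those of replicates 2 and 3 in both treatments.

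EGR2, IER2 and NR4A1 also differed between replicate numbers in Detroit 562 and FaDu. Replicate 1 exceeded replicate 2 in Detroit 562 by 4.54-fold for EGR1, 5.86-fold for EGR2, 2.09-fold for IER2 and 1.55-fold for NR4A1, and in FaDu by 1.67-fold, 1.25-fold, 1.92-fold and 1.22-fold. In SCC-9 the direction was the other, with replicate 1 at 0.683 times replicate 2 for EGR1, 0.705 for EGR2, 0.875 for IER2 and 0.924 for NR4A1. EGR1 in replicate 1 was also at 0.482 times replicate 3 there. In the blocked edgeR fit, a test of the replicate number that was chosen after the values had been seen called 7 of the 10 genes in Detroit 562 (34.4% of all genes), 8 in FaDu (44.3%) and 3 in SCC-9 (6.85%). EGR2 and NR4A1 were not called by this test in SCC-9 (adjusted p of 0.69 and 0.868). PHLDA2 was not called for replicate number in any line. PHLDA1 was, in Detroit 562 and FaDu, with replicate 1 at 0.487 and 0.453 times replicate 3, the other way round from EGR1, so the genes did not share 1 order of replicates.

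IER2 had 97.98, 41.91 and 49.55 CPM in Detroit 562 controls and 76.82, 41.56 and 52.36 CPM with HGF, and was not called in any line (log2 values -0.15, 0.12 and -0.07 in Detroit 562, FaDu and SCC-9). EGR2 was scarce, with 7 to 70 counts per library in Detroit 562, 12 to 84 in FaDu and 4 to 10 in SCC-9. Its HGF effect was not called in any line, with or without the block. In Detroit 562 the log2 value was -0.66 ± 0.81 SE (adjusted p = 0.587), and -0.60 ± 0.335 SE with the block (adjusted p = 0.158). EGR3 in Detroit 562 was too low to compare. In SCC-9 EGR3 had 61, 115 and 116 counts in controls and 41, 79 and 64 with HGF, lower in each pair, and it fell with the block by 0.69 on the log2 scale (adjusted p = 0.0614, and 1 without the block), a call lost whichever SCC-9 pair was left out (adjusted p of 0.183 to 0.553). KLF6, with 36.82, 31.34 and 35.65 CPM in Detroit 562 controls, had 30.11, 28.87 and 57.96 CPM with HGF, so that 1 library alone was high (log2 value 0.17 ± 0.23 SE, adjusted p = 0.633). NR4A1, in Detroit 562, had 9.758, 5.677 and 6.651 CPM in controls and 5.740, 4.230 and 6.116 CPM with HGF, overlapping between groups but lower in each pair. Its log2 value was -0.46 ± 0.22 SE without the block (adjusted p = 0.14) and it fell by 0.45 with the block (adjusted p = 0.00298), or by 0.26, under the fold limit, without the pair of replicate 1. It was called without the block when Detroit 562 control replicate 2 (-0.61, adjusted p = 0.0904) or FaDu control replicate 3 (-0.46, adjusted p = 0.0999) was left out.

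**Figure D4:**
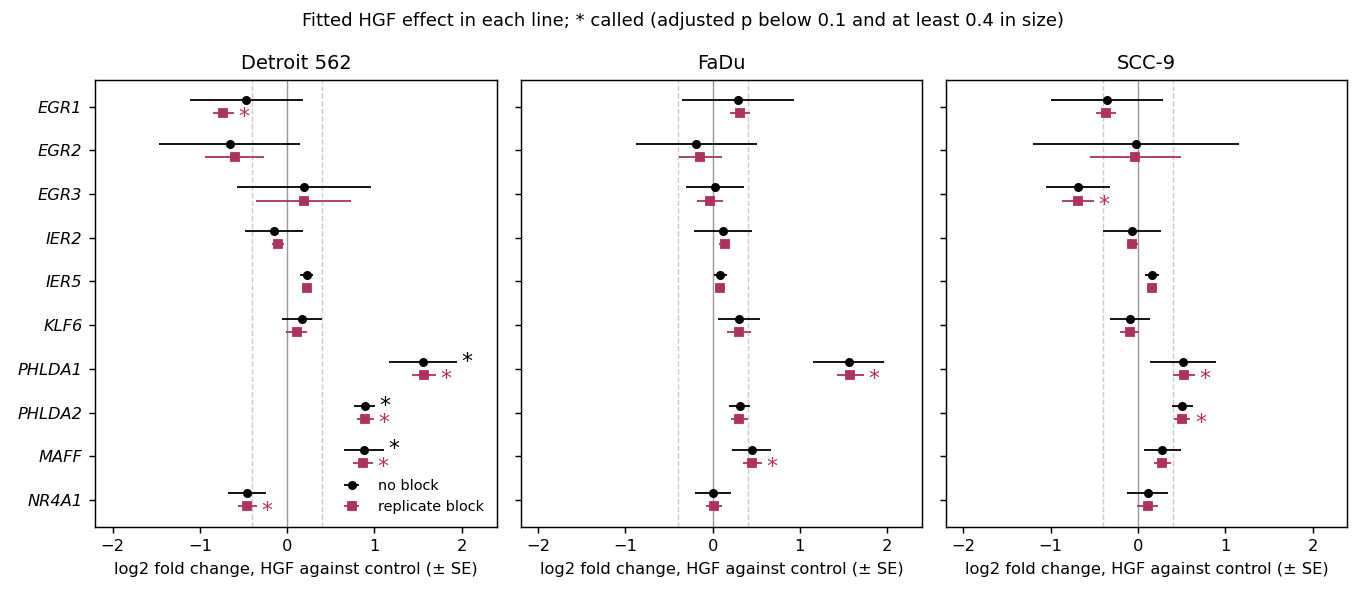
Fitted log2 fold change with HGF for each gene and line (points, with bars of 1 SE), without the replicate block (black circles) and with it (red squares), and with an asterisk where the gene was called. PHLDA1, PHLDA2 and MAFF in Detroit 562 are called in both fits, and the bars of EGR1, EGR2 and IER2 shorten most with the block.

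Averaged over the 3 lines, PHLDA1 rose by 1.21 on the log2 scale (adjusted p = 0.00406), PHLDA2 by 0.57 (adjusted p = 5.89e-04) and MAFF by 0.54 (adjusted p = 0.0117) by edgeR, and all 3 stayed called in each of 18 fits that left out 1 library. They were 3 members up, against 2.02% of all genes up, and 0 down, against 4.88%. IER5 averaged 0.16 (adjusted p = 0.0233), under the fold limit. The other 6 genes averaged between -0.29 and 0.13.

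Whether a response differed between lines was tested by the interaction of line and treatment. Without the block no member was called in any of the 3 tests, in which 0.239% (Detroit 562 minus FaDu), 0.924% (Detroit 562 minus SCC-9) and 0% (FaDu minus SCC-9, with 337 genes at an unadjusted p below 0.05) of all genes were called. With the block, 3, 4 and 2 members were called, against 19.1%, 26.9% and 1.32% of all genes. The rise of PHLDA1 was larger in Detroit 562 than in SCC-9 by 1.05 on the log2 scale with the block (adjusted p = 0.00167, and 0.366 without it) and larger in FaDu than in SCC-9 by 1.05 (adjusted p = 0.0264, and 1 without it). Between Detroit 562 and FaDu the response of PHLDA1 differed by 0.00 ± 0.51 SE. The rise of PHLDA2 was larger in Detroit 562 than in FaDu by 0.59 (blocked adjusted p = 0.012, and 0.218 without) and than in SCC-9 by 0.39 (0.0533, and 0.303 without), and without Detroit 562 control replicate 3 both differences were called without the block too (0.71, adjusted p = 0.0452, and 0.52, adjusted p = 0.0798). The response of MAFF was larger in Detroit 562 than in SCC-9 by 0.59 (blocked adjusted p = 0.0146, and 0.363 without). Untreated PHLDA1 was highest in SCC-9, where its fitted rise was smallest (log2 value 0.51, against 1.56 in Detroit 562 and 1.56 in FaDu). The difference in rise from each of these lines was called only with the block.

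Of 23 other immediate early and delayed early genes, 11 rose in Detroit 562 (6.16% of all genes did) and 0 fell (11.7%), with a median log2 value of 0.51 against -0.01 over all genes, from SPRY4, a feedback inhibitor of receptor tyrosine kinases (1.95 ± 0.41 SE, adjusted p = 0.00433), to IER3, an immediate early survival gene (0.51 ± 0.17 SE, adjusted p = 0.0372). This and the other lists were chosen with earlier results of these data known, so their shares describe them and are not independent support. DUSP6, the ERK phosphatase, rose from 5.69 ± 0.279 to 16.4 ± 2.91 CPM (SD, n = 3), a log2 value of 1.53 (adjusted p = 2.47e-04). With the block a 12th was called, F3, which encodes tissue factor (log2 value 0.53, adjusted p = 1.15e-05, against 0.112 without it). In FaDu 2 of the 23 rose (0.0258% of all genes were called, in either direction), DUSP6 (log2 value 1.44, adjusted p = 0.0115) and IER3 (1.11, adjusted p = 0.062), and with the block 12 rose (2% of genes) and 1 fell (3.6%), BTG2, an antiproliferative gene (log2 value -0.43, blocked adjusted p = 0.0141). In SCC-9 none was called without the block and 5 rose with it, against 0.562% of genes (SPRY4, DUSP4, PTGS2, DUSP5 and DUSP6), with a median of 0.19 over the list.

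**Figure D5:**
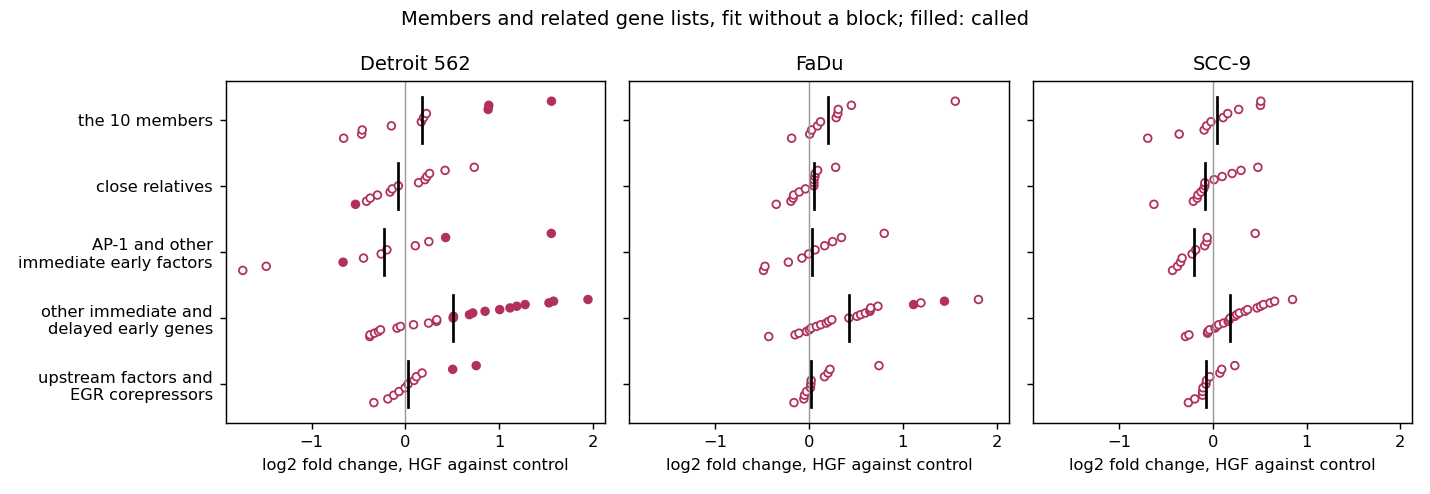
Fitted log2 fold changes with HGF, without the block, of the 10 genes and of 4 lists of related genes in each line; each circle is 1 gene, filled where called, and the vertical bar is the median of the list. The median of the 23 other immediate early and delayed early genes lies to the right of 0 in all lines (0.51, 0.42 and 0.19).

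Of 10 AP-1 and other immediate early factors, 2 rose in Detroit 562 (6.16% of all genes did), FOSL1, an AP-1 subunit that is induced later than FOS (log2 value 1.55 ± 0.34 SE, adjusted p = 0.00475), and MYC (0.43 ± 0.09 SE, adjusted p = 0.00445), and 1 fell (11.7% of all genes did), JUND (-0.66 ± 0.24 SE, adjusted p = 0.0566). With the block, under which 14.4% of genes fell, FOS, FOSB and JUNB fell there as well (log2 values -1.72, -1.70 and -0.44) with adjusted p of 3.04e-06, 2.84e-06 and 2.05e-05, against 0.404, 0.282 and 0.213 without it, the direction EGR1 and NR4A1 took in the same fit. None of these 10 was called in FaDu or SCC-9 without the block, and in FaDu FOSL1 rose (0.81, adjusted p = 0.0021) and JUND fell (-0.46, adjusted p = 4.93e-04) with it. Of 13 close relatives of the 10 genes, among them EGR4, KLF4, MAFG, NR4A3 and PHLDA3, 1 was called in Detroit 562, against 17.9% of all genes. It was NR4A2, which fell (-0.53 ± 0.16 SE, adjusted p = 0.0246). Without the block 0 were called in FaDu (0.0258% of all genes) and in SCC-9 (0%). Of 11 upstream factors and EGR corepressors, ETS1 (0.75 ± 0.28 SE, adjusted p = 0.0547) and ELK3 (0.50 ± 0.18 SE, adjusted p = 0.0497) rose in Detroit 562, as 6.16% of all genes did. ETS1 was called up in FaDu with the block (log2 value 0.76, adjusted p = 2.98e-05, against 0.557 without it), under which 2% of genes rose. The EGR corepressors NAB1 and NAB2 had log2 values of -0.07 and 0.00 in Detroit 562 without the block (adjusted p of 0.605 and 0.979).

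Of 9 heat shock and handling stress genes in Detroit 562, HSPA8 (log2 value 0.57, adjusted p = 0.00998) and HSPH1 (0.52, adjusted p = 0.00469) rose, as 6.16% of all genes did. HSPB1 fell (-0.75, adjusted p = 0.0316), as 11.7% of all genes did. HSPA6 was called up there with the block (0.80, adjusted p = 0.0184, against 0.309 without it), under which 7.13% of genes rose. In FaDu none was called without the block, against 0.0258% of all genes. HSPB1 fell there with it (-0.81, adjusted p = 9.91e-06, against 0.476), as 3.6% of genes did. In SCC-9 none was called in either fit, against 0% of all genes without the block and 1.97% with it.

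The genes most like the called members were found by the root mean square difference of log2 CPM over the 18 libraries, after centring on each line. Nearest to PHLDA1 were NAV3 (0.24), DUSP4 (0.261) and IL1R2 (0.262), where the spread of PHLDA1 itself was 0.807. Nearest to PHLDA2 were EFHD2 (0.131), YRDC (0.147) and TBC1D4 (0.151), against a spread of 0.334. Nearest to MAFF were RASSF8 (0.132), the EGF receptor ligand gene AREG (0.146) and CEP170 (0.152), against 0.384. These measures describe shared patterns and were not tested.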

How the data were processed

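Raw read counts per gene were analysed as deposited. Per the labels and the study's methods, the authors trimmed single-end reads with Cutadapt (1.16 in the processing notes), aligned them with STAR 2.5.2b to GRCh38.p12 and counted reads on the strand of each gene over its whole extent with bedtools (GENCODE annotation), so intronic reads count, which matters most for EGR2 and NR4A1, whose extents span 107905 and 36676 bases. No gene of the table overlaps a member on its strand. Counts were tested with edgeR 4.0.16 (quasi-likelihood, TMM-scaled library totals, which also give the CPM, filterByExpr, 6 groups), adjusted over 15475 genes by Benjamini-Hochberg. Replicate numbers were taken to pair the libraries because each same-number correlation within a line exceeded 0.1 (lowest 0.161, 15475 genes). DESeq2 1.42.0, other scalings and filters, single lines, single libraries and pairs left out were alternatives. The genes named were the 10 members and, of each list, the called genes with the largest and smallest change in Detroit 562, or those behind a count of 5 or fewer, plus DUSP6 and MET. EGR4, KLF4, MAFG, NR4A3, PHLDA3, NAB1, NAB2, F3, FOS, FOSB, JUNB and single markers were named outside this rule, after their values were seen. The fits were also run on simulated counts with known changes, simpler than these data, as a check of the fitting and not of the results. The members and lists were chosen with earlier results of these data known.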

Additional observations from a re-analysis of the deposited data

Results flagged for a closer look

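Responses that differed between lines were as follows, as differences of log2 fold changes with HGF in the edgeR fit with the replicate block. EGR1 was lower in all 3 Detroit 562 pairs, higher in all 3 FaDu pairs and lower in all 3 SCC-9 pairs, with a difference of -1.05 for Detroit 562 minus FaDu (adjusted p = 0.00142) and 0.68 for FaDu minus SCC-9 (adjusted p = 0.079). The second was lost on leaving out any FaDu or SCC-9 pair (adjusted p of 0.125 to 0.249) or the Detroit 562 pair of replicate 2 (0.112), and without the block the values were -0.76 (adjusted p = 0.776) and 0.65 (adjusted p = 1). For Detroit 562 minus FaDu the difference was 0.59 for PHLDA2 (adjusted p = 0.012) and -0.47 for NR4A1 (adjusted p = 0.0394), the latter lost without the Detroit 562 pair of replicate 1 (0.217) or the FaDu pair of replicate 3 (0.103). For Detroit 562 minus SCC-9 it was 1.05 for PHLDA1 (adjusted p = 0.00167), 0.39 for PHLDA2 (adjusted p = 0.0533), 0.59 for MAFF (adjusted p = 0.0146) and -0.57 for NR4A1 (adjusted p = 0.0246). There PHLDA2 was lost without the Detroit 562 pair of replicate 1 (0.149) or the SCC-9 pair of replicate 1 (0.117) or 2 (0.179), and NR4A1, lower in all 3 Detroit 562 pairs and higher in all 3 SCC-9 pairs, without the Detroit 562 pair of replicate 1 (0.11). For FaDu minus SCC-9 the difference was 1.05 for PHLDA1 (adjusted p = 0.0264), lost without the FaDu pair of replicate 1 (0.159) or the SCC-9 pair of replicate 2 (0.134). IER2 and KLF6 were higher in all 3 FaDu pairs and lower in all 3 SCC-9 pairs, but the difference was not called for either gene, at 0.20 (adjusted p = 0.507) and 0.39 (adjusted p = 0.471). Without the block none of these differences was called (adjusted p of 0.218 to 1).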

How the results depend on the processing

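Without the replicate block the number of the 10 genes called with HGF was 3 for Detroit 562 and 0 for each of FaDu and SCC-9, and with it 5, 2 and 3. With the block 3, 4 and 2 genes differed in response between lines (Detroit 562 minus FaDu, Detroit 562 minus SCC-9, FaDu minus SCC-9), against 0 in each without it. DESeq2 called 1 gene in FaDu (PHLDA1) and 1 in SCC-9 (PHLDA2), with or without its fold change prior, and so did edgeR fitted to 6 SCC-9 libraries only (1, PHLDA2). At an adjusted p below 0.05 and a log2 value of at least 1, 1 gene was left in Detroit 562 and 1 in the average over lines (PHLDA1). The log2 value of EGR3 in FaDu became -0.03 with the block, and that of NR4A1 in FaDu -0.002 with upper-quartile factors. Other scalings moved the median of all genes by no more than -0.0336 (log2). On leaving out 1 library, or both libraries of 1 replicate number in the line itself without or with the block (the latter added after seeing the data), counts ran from 3 to 6 in Detroit 562, from 0 to 2 in FaDu and from 0 to 2 in SCC-9. For the first 2 differences between lines, leaving out 1 library without the block gave counts from 0 to 1. Log2 values that changed sign under these ran in Detroit 562 from -1.88 to 0.41 for EGR1, -1.59 to 1.05 for EGR2, -0.19 to 0.64 for EGR3, -0.43 to 0.32 for IER2 and -0.23 to 0.37 for KLF6, in FaDu from -0.087 to 0.76 for EGR1, -0.66 to 0.37 for EGR2, -0.35 to 0.36 for EGR3, -0.25 to 0.54 for IER2 and -0.18 to 0.20 for NR4A1, and in SCC-9 from -0.52 to 0.55 for EGR2 and -0.14 to 0.028 for IER2. The cause of these changes was not tested. PHLDA1, PHLDA2 and MAFF kept their direction in Detroit 562 under every alternative, and their calls under all but the stricter threshold, at which PHLDA2 and MAFF were lost. EGR2 had only 4 to 84 counts per library, and EGR3 only 4 to 7 in Detroit 562, which limits what these genes can show. The part of counting error in their spread was not tested.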
